A study of Homo sapiens with 12 samples.

Results

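Antisense RNAs are transcripts read from the strand opposite a known gene, and their symbols are built from that gene's symbol followed by -AS and a digit. On the arrays of this study, 479 of 14884 named genes carried such a symbol (A1BG-AS1 was left out), each taken at the probe set with the highest mean. The gene standing before -AS, here called the sense gene, was measured for 314 of them and was not analysed here for the other 165. The 314 pairs held 302 different sense genes, of which 11 had more than 1 antisense RNA. In RefSeq, 473 of the 479 were annotated as long non-coding RNA and 6 (GNAS-AS1, HAS2-AS1, NPPA-AS1, PEG3-AS1, TRAF3IP2-AS1 and ZFAT-AS1) as antisense RNA, and all 479 gene identifiers matched. The rule read symbols and no change between groups.

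The cells were HepG2, a human liver tumour line. One beta-catenin allele of HepG2 lacks exon 3, per the series' design text, so the cells make a shortened, mutated beta-catenin beside the full-length protein. Each group of 3 arrays received 1 small interfering RNA and was collected 120 h later: siCtrl is the control siRNA, sißCat-WT targets the full-length form, sißCat-mut the shortened form and sißCat-both targets both forms. All 12 samples are therefore the same line with the same deletion, and siCtrl is the shared control of every comparison against it. The labels do not say that the 3 arrays of a group came from separate cultures, and p-values then rest on array-to-array spread that may be purely technical. The comparisons set siRNAs aimed at each form of beta-catenin against the control and each other. With 1 siRNA per group, loss of a form cannot be told apart from other effects of that siRNA. The targeted gene itself was not analysed here, and the group labels have no such check.

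An antisense RNA can start beside its sense gene's promoter and run away from it, overlap the body of the sense gene, or lie within one of its introns. Some act in cis, by transcription across the sense promoter or by pairing with the sense transcript, and many have no known function. Beta-catenin is both an adhesion protein and the transcriptional coactivator of Wnt signalling, where it binds TCF and LEF factors at target genes. In hepatocytes that signal is known for the metabolic zonation of the liver lobule, and exon 3 encodes the residues that mark the protein for degradation.

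Levels are log2 intensities after robust multi-array averaging (RMA), changes are log2 differences of group means ± the standard error of the limma fit (n = 3 arrays per group), and a gene was called at a Benjamini-Hochberg adjusted p under 0.05 over all 14884 genes. Arrays of a group correlated at 0.994 to 0.997 over all probe sets, and 0 pairs of arrays held identical values. Of 10 liver cell markers listed, 8 were measured, with mean levels of 9.70 to 13.3, while the measured endothelial markers (VWF and PECAM1, 2 of 3 listed) had 4.43 and 4.61 and the measured fibroblast marker (DCN, 1 of 4 listed) 3.04. CD68, a lysosomal protein and the measured one of 4 leukocyte markers, had 10.2. After sißCat-both all 8 liver cell markers were called higher, as was VWF (0.37 ± 0.10), and after sißCat-mut 7 of the 8 were, with VWF (0.33 ± 0.10) and CD68 (0.48 ± 0.10). After sißCat-WT 2 of the 8 were called lower, AHSG (-0.42 ± 0.07, adjusted p = 0.00101) and FGB (-0.41 ± 0.09, adjusted p = 0.0115), and 0 higher. The part of these shifts in the changes below was not tested, and less RNA per cell cannot be told apart from fewer cells that make it.

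The antisense RNAs gave mostly dim signals. Their mean levels ran from 2.50 to 8.50 with a median of 4.62, and 228 of 479 (47.6%) lay above 4.74, the median over all probe sets of the array. Of all genes 69% lay above it, with a median of 6.01, and of the sense genes 75.5%, with a median of 6.50. The brightness of a probe set also depends on its sequence, so these levels place the members on the array's range and do not rank transcripts. The 5 highest means were those of BCAR3-AS1 (8.50), PITPNA-AS1 (8.28), TMPO-AS1 (8.25), FGD5-AS1 (8.20) and SVIL-AS1 (8.15).

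In each knockdown a smaller share of the antisense RNAs than of all genes passed the test. After sißCat-WT, 26 were called (5.43%) against 10.2% of all genes: 5 were higher (all genes 5.2%) and 21 lower (all genes 4.97%). After sißCat-mut, 55 were called (11.5%) against 25.6% of all genes, with 36 higher (all genes 12%) and 19 lower (all genes 13.6%). After sißCat-both, 78 were called (16.3%) against 33.6%, with 50 higher (all genes 15.5%) and 28 lower (all genes 18.1%). Leaving out siCtrl replicate 1, 2 or 3 brought the 26 calls after sißCat-WT down to 14, 12 and 12, and leaving out sißCat-WT replicate 2 or 3 to 13 and 12.

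Dim signal went with few calls. Among the 228 members above the array median, 25 (11%), 46 (20.2%) and 65 (28.5%) were called after sißCat-WT, sißCat-mut and sißCat-both, where genes of all kinds above that median gave 14%, 35% and 44.9%. At or below the median, 1, 9 and 13 of 251 members were called (0.398%, 3.59% and 5.18%), against 1.75%, 4.61% and 8.42% of all such genes. The sense genes of the pairs were called more often, with 44 (14.6%), 88 (29.1%) and 132 (43.7%) of 302. The median change over the 479 members was -0.013, 0.03 and 0.0182, and over all genes 0.00537, 0.0111 and -0.00617.

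**Figure D1:**
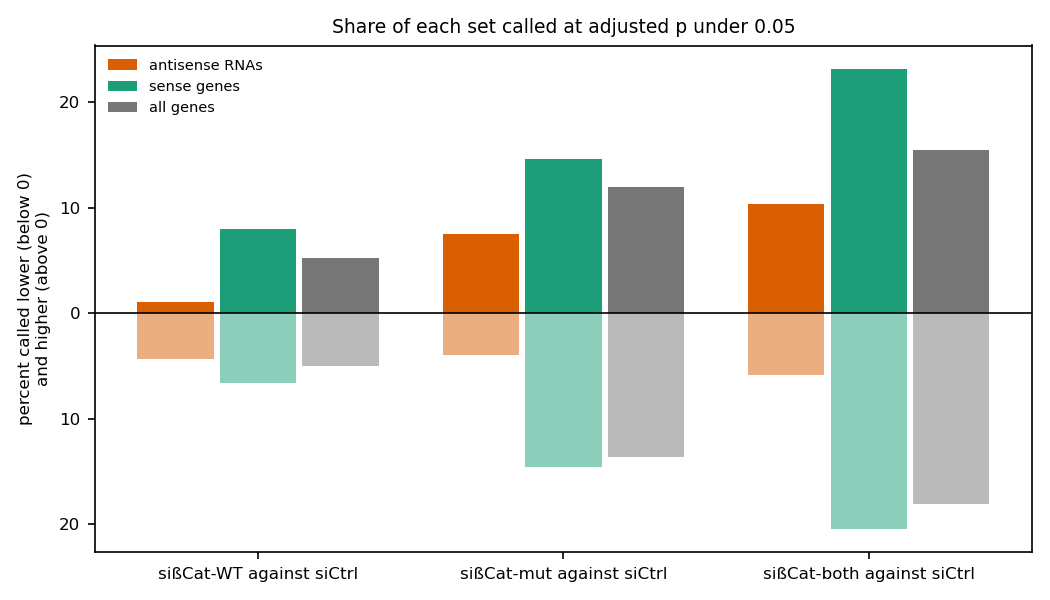
Percent of the antisense RNAs, of their sense genes and of all genes called higher (solid, above 0) and lower (pale, below 0) in each knockdown against siCtrl. In sißCat-WT the antisense RNAs split into 1.04% higher and 4.38% lower, and in sißCat-both into 10.4% higher and 5.85% lower.

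Among the called members the highest mean stood most often in sißCat-both. The F test over the 4 groups called 112 members (23.4%; all genes 45.3%), and 53 of the 112 (47.3%) had their highest mean in sißCat-both, against 29.7% of the called genes of all kinds. The lowest mean stood in sißCat-WT for 52 (46.4%), against 26%. The highest mean of 9 (8.04%) stood in sißCat-WT, against 30.1%. These shares are given as a description of the called members, with no test.

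DLGAP1-AS1 had the largest change of the 479 against siCtrl. It lies opposite DLGAP1, a scaffold protein of the synapse, which was not analysed here. Its levels were 7.13, 7.48 and 7.45 on the siCtrl arrays, 7.25, 7.60 and 7.75 on the sißCat-WT arrays, 4.89, 5.25 and 5.18 on the sißCat-mut arrays and 4.89, 4.48 and 4.76 on the sißCat-both arrays. All 6 arrays of sißCat-mut and sißCat-both lay below all 6 of siCtrl and sißCat-WT, and the 2 latter groups overlapped. It fell by 2.25 (4.75-fold lower, SE 0.15, adjusted p = 2.17e-07) after sißCat-mut and by 2.64 (6.24-fold lower, SE 0.15, adjusted p = 2.7e-08) after sißCat-both. After sißCat-WT the difference was 0.18 ± 0.15 (adjusted p = 0.563). Over the 12 arrays its pattern was most like that of ENC1 (Pearson r 0.993), CEMIP (0.992) and WDHD1 (0.991), a description over 4 groups of 3 arrays that share their treatment.

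PRR7-AS1, whose sense gene encodes a proline-rich membrane protein, fell after the same siRNAs. Its levels were 6.27, 6.58 and 6.59 on the siCtrl arrays, 6.30, 6.27 and 6.44 on the sißCat-WT arrays, 4.91, 4.97 and 5.10 on the sißCat-mut arrays and 5.06, 4.86 and 5.35 on the sißCat-both arrays. The arrays of sißCat-mut and sißCat-both lay at 5.35 or lower and those of siCtrl and sißCat-WT at 6.27 or higher. It fell by 1.49 (SE 0.12, adjusted p = 1.21e-06) and by 1.39 (SE 0.12, adjusted p = 1.14e-06). PRR7 itself differed from siCtrl by -0.09 ± 0.09 (adjusted p = 0.535) and -0.14 ± 0.09 (adjusted p = 0.248), neither of which passed the test. The starts of the pair lie 381 bases apart.

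PRKG1-AS1 lies opposite the gene of a cGMP-dependent protein kinase, which was not analysed here. Its levels were 5.10, 4.64 and 4.89 on the siCtrl arrays, 5.07, 4.51 and 4.65 on the sißCat-WT arrays, 4.03, 3.83 and 3.90 on the sißCat-mut arrays and 3.97, 3.74 and 3.75 on the sißCat-both arrays. It sat near the median of the array in siCtrl and at 4.03 or lower on all arrays of sißCat-mut and sißCat-both, which did not overlap siCtrl. It fell by 0.96 (SE 0.14, adjusted p = 0.000188) and 1.06 (SE 0.14, adjusted p = 4.88e-05). EPB41L4A-AS1, which hosts a small nucleolar RNA, had 6.82, 6.80 and 6.85 in siCtrl, 6.59, 6.58 and 6.54 in sißCat-WT, 6.12, 5.87 and 5.75 in sißCat-mut and 6.38, 5.91 and 5.83 in sißCat-both. It fell by 0.91 (adjusted p = 0.000123) and 0.78 (adjusted p = 0.000241), and the groups compared with siCtrl did not overlap it. In sißCat-both its first array stood above the other 2. EPB41L4A was dim (mean 3.14) and differed by -0.20 ± 0.07 and -0.18 ± 0.07, which did not pass the test.

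The promoters of DLGAP1-AS1 and PRKG1-AS1, members that fell after both siRNAs that target the shortened form, are shown because beta-catenin acts through TCF and LEF factors. Both windows are RefSeq sequence of build GRCh38.p14, from 250 bases before to 50 bases after the start, 5′ to 3′ on the strand of the antisense RNA: chr18:3593864-3594163 (plus strand) and chr10:52314079-52314378 (minus strand). Capitals mark a match to a TCF/LEF motif, searched as CTTTGAT or CTTTGAA on both strands (ATCAAAG and TTCAAAG on the other strand).
DLGAP1-AS1: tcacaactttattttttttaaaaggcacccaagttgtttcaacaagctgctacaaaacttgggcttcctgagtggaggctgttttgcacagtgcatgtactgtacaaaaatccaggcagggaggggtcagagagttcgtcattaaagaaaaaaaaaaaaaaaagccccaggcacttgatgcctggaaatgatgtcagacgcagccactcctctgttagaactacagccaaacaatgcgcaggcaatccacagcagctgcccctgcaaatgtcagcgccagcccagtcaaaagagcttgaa
PRKG1-AS1: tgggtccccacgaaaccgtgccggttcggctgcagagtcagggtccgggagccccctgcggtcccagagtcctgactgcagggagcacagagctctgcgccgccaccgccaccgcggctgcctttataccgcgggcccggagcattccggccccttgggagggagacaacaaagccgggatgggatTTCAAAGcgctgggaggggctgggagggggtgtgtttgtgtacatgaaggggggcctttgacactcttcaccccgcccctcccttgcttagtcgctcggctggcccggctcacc
The DLGAP1-AS1 window held 0 matches and the PRKG1-AS1 window 1, at base 187. The windows of PRR7-AS1 and EPB41L4A-AS1, which fell after the same siRNAs and are not shown, held 0. Of 27305 genes in the promoter table, 2281 (8.35%) had a match in at least 1 window, and of the 369 antisense RNAs in it 31 (8.4%) did. Among called members with a window in the table, of those lower the motif stood in 3 of 13 (23.1%) after sißCat-mut and 5 of 19 (26.3%) after sißCat-both, and of those higher in 2 of 29 (6.9%) and 3 of 39 (7.69%). After sißCat-WT it stood in 2 of 17 lower members (11.8%) and 1 of 4 higher ones (25%). The lower members after sißCat-mut and after sißCat-both overlap, and PRKG1-AS1 and TMEM51-AS1, each with 1 match, are in both. A gene with several windows, such as ZNF503-AS2 with 6, was counted if any of them held a match. A match describes letters in a window and shows no binding.

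Other members also fell after sißCat-both. MAGI2-AS3, opposite a scaffold protein gene, had 7.37, 7.66 and 7.57 in siCtrl, 7.51, 7.11 and 7.38 in sißCat-WT, 7.23, 7.19 and 7.22 in sißCat-mut and 6.58, 6.40 and 6.09 in sißCat-both. The sißCat-both arrays lay below all others, and the change was -1.18 ± 0.13 against siCtrl (adjusted p = 7.44e-06) and -0.85 ± 0.13 against sißCat-mut (adjusted p = 0.00028). Its dimmer second probe set differed by -0.33 against siCtrl. FAM222A-AS1 went from 5.57 ± 0.08 to 4.64 ± 0.17 (SD), a change of -0.92 ± 0.12 (adjusted p = 4.83e-05). PEG3-AS1, opposite the imprinted gene PEG3, changed by -0.55 ± 0.12 (adjusted p = 0.00318) after sißCat-mut and -0.74 ± 0.12 (adjusted p = 0.00023) after sißCat-both. After sißCat-mut, SLCO4A1-AS1 (-0.68 ± 0.16, adjusted p = 0.0067; -0.45 without siCtrl replicate 2) and RHPN1-AS1 (-0.49 ± 0.12, adjusted p = 0.00676) were also among the 10 largest falls.

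The largest rise belonged to CBR3-AS1, which lies beside the carbonyl reductase gene CBR3. Its levels were 4.98, 4.81 and 5.0 on the siCtrl arrays, 4.72, 5.25 and 4.73 on the sißCat-WT arrays, 5.97, 6.19 and 5.57 on the sißCat-mut arrays and 6.83, 6.51 and 7.21 on the sißCat-both arrays. The order siCtrl and sißCat-WT, then sißCat-mut, then sißCat-both held without overlap of any array. It rose by 0.98 ± 0.19 (adjusted p = 0.00154) after sißCat-mut and 1.92 ± 0.19 (3.79-fold, adjusted p = 3.47e-06) after sißCat-both, and sißCat-both exceeded sißCat-mut by 0.94 ± 0.19 (adjusted p = 0.00272). CBR3, with a mean level of 4.01, differed by 0.29 ± 0.12 after sißCat-both and did not pass (adjusted p = 0.0873). The difference was 0.38 and passed without siCtrl replicate 1 (adjusted p = 0.044), and was 0.14 without siCtrl replicate 3. TXN2 (r 0.976), GPC5 (0.975) and PBLD (0.974) were most like CBR3-AS1 over the 12 arrays.

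Several members were highest in sißCat-both and intermediate in sißCat-mut. DLEU7-AS1 had 4.87, 4.68 and 5.02 in siCtrl, 4.43, 4.74 and 4.39 in sißCat-WT, 5.75, 5.60 and 5.05 in sißCat-mut and 6.21, 5.93 and 6.03 in sißCat-both. It rose by 1.20 ± 0.16 after sißCat-both (adjusted p = 5.01e-05), with no overlap. Its rise of 0.61 ± 0.16 after sißCat-mut (adjusted p = 0.0116) was no longer called without siCtrl replicate 2 (0.056), sißCat-mut replicate 1 (0.0586) or sißCat-mut replicate 2 (0.0513).

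PAXIP1-AS2, opposite a gene of the DNA damage response, gave 5.65, 6.05 and 5.98 on the siCtrl arrays, 5.50, 5.85 and 5.86 on the sißCat-WT arrays, 6.43, 6.65 and 6.50 on the sißCat-mut arrays and 7.0, 6.93 and 7.06 on the sißCat-both arrays. The sißCat-both arrays were the highest, the sißCat-mut arrays next, and neither overlapped siCtrl. The rises were 0.63 ± 0.12 (adjusted p = 0.00124) and 1.11 ± 0.12 (adjusted p = 7.44e-06), while PAXIP1 changed by -0.32 ± 0.10 (adjusted p = 0.0253; 0.0829 to 0.108 without any of 3 single arrays) and -0.41 ± 0.10 (adjusted p = 0.00391). RAB11B-AS1 rose by 0.61 ± 0.11 and 0.85 ± 0.11 (adjusted p = 0.000679 and 2.91e-05). ST20-AS1 rose by 0.57 ± 0.09 and 1.09 ± 0.09 (adjusted p = 0.000224 and 4.54e-07), and after sißCat-WT by 0.31 ± 0.09 (adjusted p = 0.0375), a call that ended without any of 5 single arrays (0.0712 to 0.151).

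USP30-AS1, opposite the gene of a mitochondrial deubiquitinase, stood high in sißCat-both alone of the 4 groups. Its levels were 4.96, 5.13 and 4.97 on the siCtrl arrays, 4.96, 4.94 and 4.89 on the sißCat-WT arrays, 5.05, 5.40 and 5.33 on the sißCat-mut arrays and 6.18, 6.06 and 6.23 on the sißCat-both arrays. The sißCat-both arrays lay at 6.06 or higher and the other 9 at 5.40 or lower. It rose by 1.14 ± 0.09 against siCtrl (adjusted p = 7.82e-07) and by 0.89 ± 0.09 against sißCat-mut (adjusted p = 1.7e-05). The differences in sißCat-WT (-0.09 ± 0.09) and sißCat-mut (0.24 ± 0.09) did not pass, and the departure from additivity, sißCat-both minus sißCat-WT minus sißCat-mut plus siCtrl, was 0.99 ± 0.13 (adjusted p = 0.000254; 39 members called, 8.14%, all genes 16.4%). USP30 was 0.35 ± 0.11 higher (adjusted p = 0.0251; 0.058 to 0.106 without any of 3 single arrays).

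**Figure D2:**
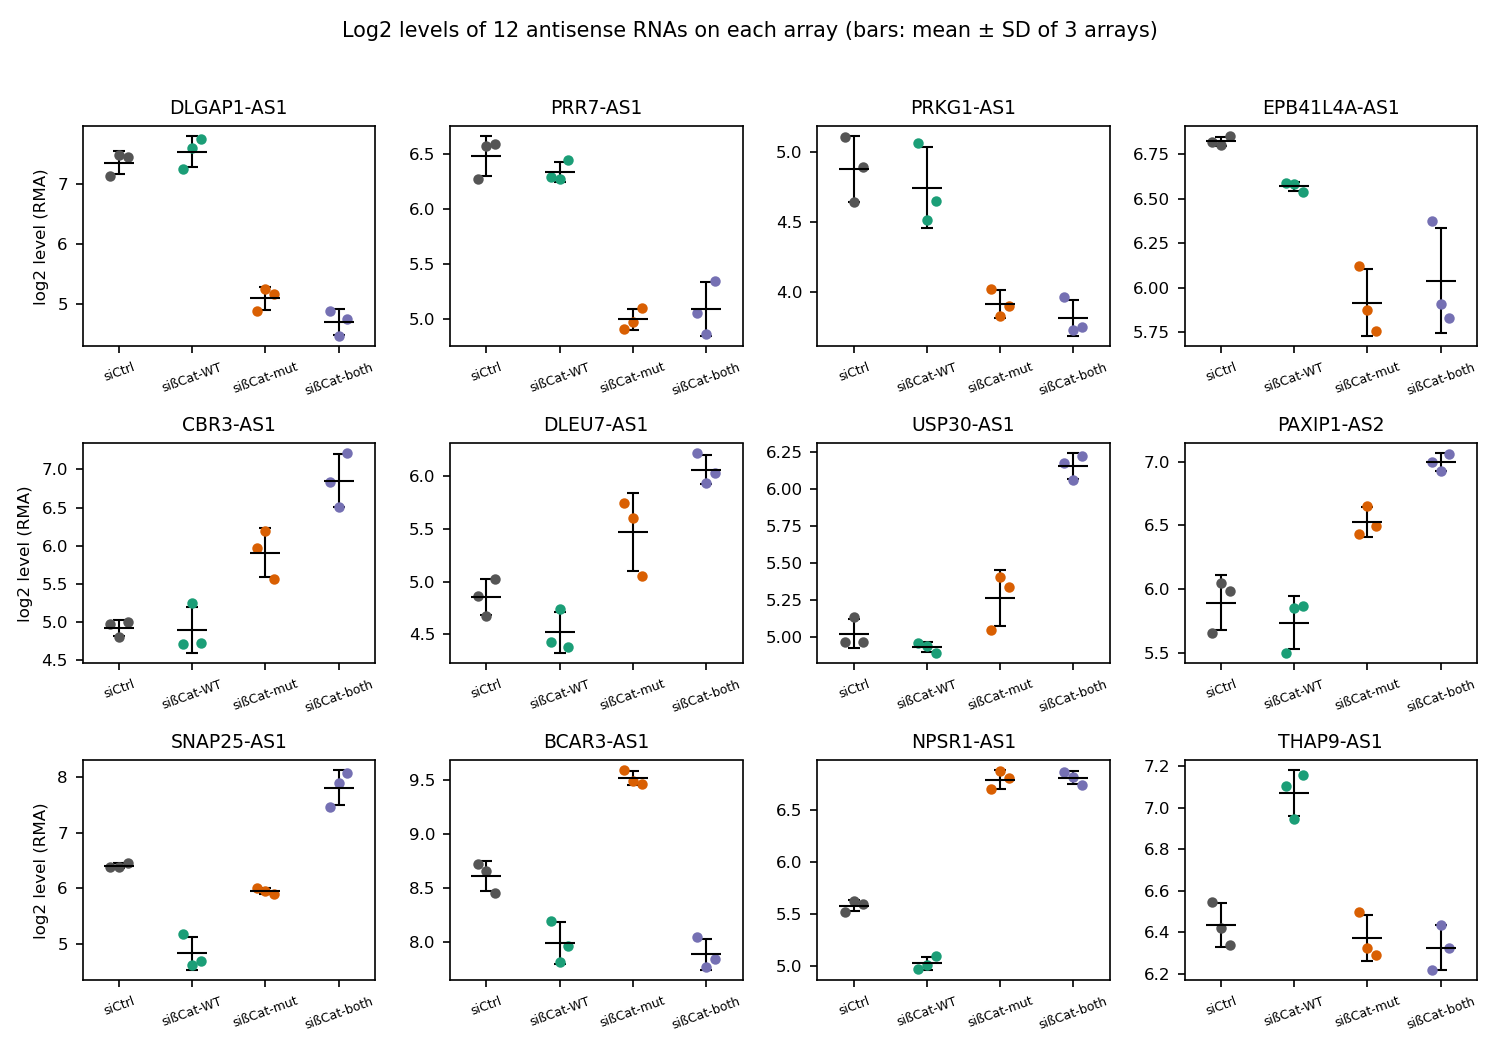
Log2 level on each array (points) of 12 antisense RNAs in the 4 siRNA groups, with the mean and SD of 3 arrays (bars); each panel has its own y axis. DLGAP1-AS1 has means of 7.35 ± 0.19 in siCtrl, 5.10 ± 0.19 in sißCat-mut and 4.71 ± 0.21 in sißCat-both, and SNAP25-AS1 4.83 ± 0.30 in sißCat-WT, the lowest group, and 7.81 ± 0.31 in sißCat-both, the highest.

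SNAP25-AS1 moved in opposite directions after sißCat-WT and after sißCat-both, the siRNA that targets both forms. It lies opposite SNAP25, a protein of vesicle fusion that was not analysed here. Its levels were 6.37, 6.38 and 6.46 on the siCtrl arrays, 5.17, 4.62 and 4.69 on the sißCat-WT arrays, 6.01, 5.95 and 5.89 on the sißCat-mut arrays and 7.47, 7.89 and 8.07 on the sißCat-both arrays. No 2 of the 4 groups overlapped: sißCat-WT was lowest, then sißCat-mut, siCtrl and sißCat-both. It fell by 1.57 after sißCat-WT (2.98-fold lower, SE 0.15, adjusted p = 2.85e-05) and rose by 1.41 after sißCat-both (2.65-fold higher, SE 0.15, adjusted p = 7.2e-06). The fall of 0.45 after sißCat-mut (adjusted p = 0.0407) was lost without any 1 of the 6 arrays compared (0.0688 to 0.111). Its departure from additivity was 3.43 ± 0.21 (adjusted p = 7.18e-07), and sißCat-both exceeded sißCat-WT by 2.98 ± 0.15 (adjusted p = 7.18e-09; in that comparison 89 members were called, 18.6% against 36.2% of all genes, 64 higher, all genes 16.1%, and 25 lower, all genes 20.1%). PHLPP1 (r 0.987), DLD (0.985) and CES1 (0.983) were most like it over the 12 arrays.

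BCAR3-AS1, opposite the gene of an adaptor protein of cell adhesion signalling, was higher after sißCat-mut and lower after sißCat-WT and sißCat-both. Its levels were 8.72, 8.66 and 8.46 on the siCtrl arrays, 8.20, 7.82 and 7.97 on the sißCat-WT arrays, 9.58, 9.49 and 9.46 on the sißCat-mut arrays and 8.05, 7.77 and 7.85 on the sißCat-both arrays. The sißCat-mut arrays lay above all others, sißCat-WT and sißCat-both lay below siCtrl, and these 2 overlapped each other. It rose by 0.90 ± 0.11 after sißCat-mut (adjusted p = 3.44e-05) and changed by -0.62 ± 0.11 (adjusted p = 0.00219) and -0.72 ± 0.11 (adjusted p = 0.000125) after the others. BCAR3 was higher after sißCat-mut (0.31 ± 0.07, adjusted p = 0.00694) and after sißCat-both (0.37 ± 0.07, adjusted p = 0.00146), so sense and antisense changed the same way in the first and opposite ways in the second. The sißCat-mut group exceeded sißCat-WT by 1.52 ± 0.11 for BCAR3-AS1 (adjusted p = 1.81e-07).

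NPSR1-AS1 and SNAI3-AS1 were lower after sißCat-WT and higher after the siRNAs that target the shortened form. NPSR1-AS1 had 5.52, 5.63 and 5.60 in siCtrl, 4.98, 5.01 and 5.10 in sißCat-WT, 6.70, 6.87 and 6.81 in sißCat-mut and 6.86, 6.82 and 6.74 in sißCat-both. The sißCat-mut and sißCat-both arrays overlapped each other and lay above siCtrl, which lay above sißCat-WT. The changes were -0.55 ± 0.07 (adjusted p = 0.000335), 1.21 ± 0.07 (adjusted p = 1.29e-07) and 1.23 ± 0.07 (adjusted p = 4.93e-08). For SNAI3-AS1 they were -0.41 ± 0.10 (adjusted p = 0.0154; 0.0561 to 0.0746 without any of 3 single arrays), 0.88 ± 0.10 (adjusted p = 1.68e-05) and 0.92 ± 0.10 (adjusted p = 6.14e-06). SNAI3, a zinc finger factor of the Snail family, differed by -0.24 ± 0.08, 0.10 ± 0.08 and -0.01 ± 0.08, none of them called.

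Compared directly, sißCat-mut and sißCat-WT differed in 74 members (15.4%, all genes 31%): 56 of them higher in sißCat-mut (all genes 14%) and 18 lower (all genes 17%). The largest differences in each direction were NPSR1-AS1 (1.76 ± 0.07, adjusted p = 2.23e-09), BCAR3-AS1, SNAI3-AS1 and SNAP25-AS1 upwards and DLGAP1-AS1 (-2.43 ± 0.15, adjusted p = 4.08e-08), PRR7-AS1, PRKG1-AS1 and THAP9-AS1 downwards. Between sißCat-both and sißCat-mut, 59 members were called (12.3%, all genes 22.2%), 31 higher in sißCat-both (all genes 10.6%) and 28 lower (all genes 11.6%), a count that fell to 36 without sißCat-both replicate 3 and 38 without sißCat-mut replicate 2. COCH-AS1 (-0.36 ± 0.11, adjusted p = 0.031) and BABAM2-AS1 (-0.25 ± 0.08, adjusted p = 0.0405) were lower in sißCat-both than in sißCat-mut. COCH-AS1 had 5.26, 5.32 and 5.26 in siCtrl, 5.53, 5.46 and 5.75 in sißCat-WT, 6.22, 6.31 and 6.44 in sißCat-mut and 5.73, 5.96 and 6.19 in sißCat-both, so sißCat-mut was the highest group and siCtrl the lowest, with no overlap between siCtrl and the others. It rose by 1.04 ± 0.11 after sißCat-mut (adjusted p = 1.24e-05) and 0.68 ± 0.11 after sißCat-both (adjusted p = 0.000267). BABAM2-AS1, opposite the gene of a subunit of a BRCA1 complex, rose by 0.91 ± 0.08 (adjusted p = 2.73e-06) and 0.66 ± 0.08 (adjusted p = 2.65e-05).

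After sißCat-WT the changes were small apart from SNAP25-AS1, the single member called at 2-fold or more. THAP9-AS1, beside a gene that derives from a transposase, was the largest rise. Its levels were 6.55, 6.42 and 6.34 on the siCtrl arrays, 7.10, 6.95 and 7.16 on the sißCat-WT arrays, 6.50, 6.33 and 6.29 on the sißCat-mut arrays and 6.22, 6.44 and 6.33 on the sißCat-both arrays. The 3 sißCat-WT arrays lay above the other 9, which overlapped. It rose by 0.63 ± 0.09 against siCtrl (adjusted p = 0.000547), while THAP9 differed by 0.01 ± 0.10 (adjusted p = 0.982). Other rises after sißCat-WT lost the call when some single array was left out, TAPT1-AS1 (0.43 ± 0.11) without siCtrl replicate 1, siCtrl replicate 2 or sißCat-WT replicate 3 (adjusted p = 0.0605, 0.0899 and 0.094) and NR2F1-AS1 (0.37 ± 0.11) without any of 9 arrays (0.0556 to 0.181).

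Among the members lower after sißCat-WT was MCF2L-AS1, which starts close to MCF2L. MCF2L-AS1 had 6.84, 6.88 and 7.02 in siCtrl, 6.27, 6.28 and 6.31 in sißCat-WT, 6.99, 7.07 and 7.09 in sißCat-mut and 7.05, 7.10 and 6.80 in sißCat-both. The sißCat-WT arrays lay below the other 9, and it fell by 0.62 (adjusted p = 0.000439). MCF2L, whose start lies 576 bases away, differed by -0.21 ± 0.07 and did not pass (adjusted p = 0.101). HM13-AS1 (-0.59 ± 0.10, adjusted p = 0.00227) and KANSL1-AS1 (-0.49 ± 0.10, adjusted p = 0.00553) fell too. Their sense genes, a signal peptide peptidase and a subunit of a histone acetyltransferase complex, did not pass (adjusted p = 0.58 and 0.994). NPPA-AS1 changed by -0.55 ± 0.13 (adjusted p = 0.0137; 0.065 without siCtrl replicate 3, 0.0555 without sißCat-WT replicate 3) and FBXL19-AS1 by -0.47 ± 0.12 (adjusted p = 0.0244; 0.0538 to 0.118 without any of 5 single arrays).

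Antisense RNA and sense gene were set side by side in the 314 measured pairs. After sißCat-both the antisense RNA was called in 43 pairs and the sense gene in 138, where 33.6% of all genes were called. A sense gene with several antisense RNAs counts once in each of its pairs. Both partners were called in 30 pairs, 10 with both higher and 9 with both lower. In 10 more the antisense RNA was higher and the sense gene lower, and 1 went the other way round. After sißCat-mut both partners were called in 14 pairs, 5 both higher, 5 both lower and 4 with the antisense RNA higher and the sense gene lower. Leaving out siCtrl replicate 1, siCtrl replicate 2 or sißCat-mut replicate 3 brought the 14 down to 8, 9 and 7. After sißCat-WT there were 4 pairs, 3 lower and 1 higher, a count that fell to 0 without siCtrl replicate 1, siCtrl replicate 3 or sißCat-WT replicate 2, to 1 without sißCat-WT replicate 3 or sißCat-mut replicate 2, and to 2 without siCtrl replicate 2 or sißCat-WT replicate 1.

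A sense gene was called in 21.1%, 56% and 69.8% of the pairs whose antisense RNA was called, and in 14.2%, 27% and 39.9% of the others, after sißCat-WT, sißCat-mut and sißCat-both. Across the 314 pairs the changes of the partners correlated weakly, with Pearson r of 0.229, 0.219 and 0.187 in that order. These are descriptions across pairs that share the same arrays and controls. The shares were not matched for level, and dim genes were called less often. Whether the probe sets of a pair tell the strands of overlapping genes apart was not tested.

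The arrangement of the pairs on the genome was read from RefSeq for the 218 pairs with both genes in the promoter table. In 93 pairs the starts lay within 2000 bases of each other on opposite strands, in 120 the genes overlapped on opposite strands with starts farther apart, and 5 were neither. Pairs with close starts can overlap too. The genes of the PCNA, TMPO, WWTR1, LBX2 and BOK pairs did, and those of TMEM51, RASAL2 and URB1 did not. After sißCat-both, both partners were called in 13 of the 93 pairs with close starts, 12 the same way and 1 the opposite way, and in 6 of the 120 overlapping pairs, 1 the same way and 5 the opposite way. After sißCat-mut the counts were 6 (6 the same way) and 3 (2 the same way, 1 opposite). After sißCat-both the antisense RNA was called in 16 and the sense gene in 42 of the 93 pairs. In the 120 the counts were 10 and 57. After sißCat-mut they were 7 and 31, and 8 and 38. Of the 96 pairs without both genes in the promoter table, 10 had both partners called after sißCat-both (6 the same way, 4 opposite). After sißCat-mut 5 did (2 the same way, 3 opposite). Of the 5 that were neither, 1 did after sißCat-both, the opposite way. Pearson r over the pairs with close starts was 0.251 after sißCat-WT, 0.411 after sißCat-mut and 0.461 after sißCat-both, and over the overlapping pairs 0.143, 0.226 and 0.095, with no test of the difference.

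**Figure D3:**
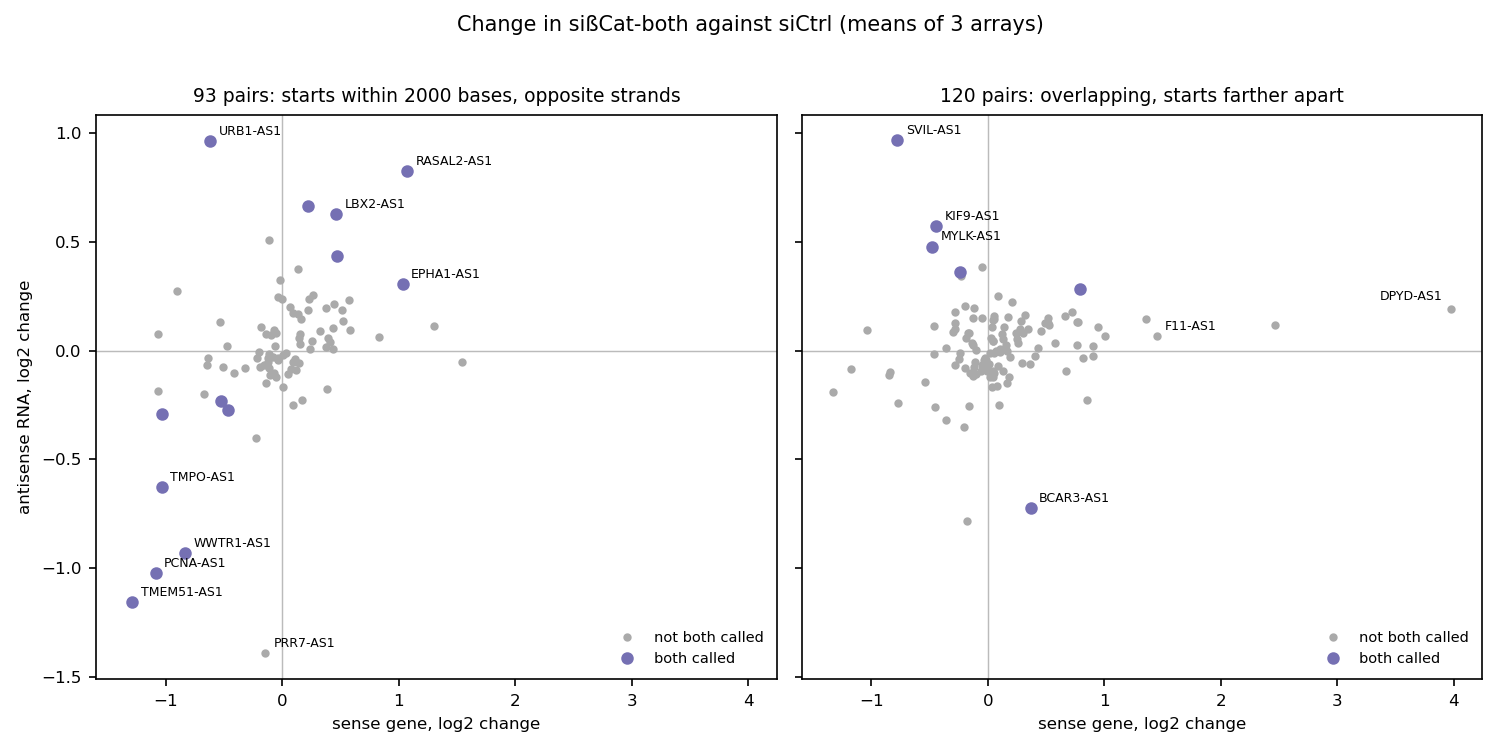
Log2 change of the antisense RNA (y axis) against that of its sense gene (x axis) in sißCat-both against siCtrl, for 93 pairs with starts within 2000 bases (left) and 120 overlapping pairs with starts farther apart (right). Purple points are pairs with both partners called; 12 of 13 lie in the same-direction quadrants on the left and 1 of 6 on the right, and DPYD-AS1 lies near 0 (0.19) beside a sense change of 3.98.

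Of the pairs with close starts, 4 in which the promoter windows of the 2 genes share bases are shown by the window of the antisense RNA. Other pairs with close starts had windows that share 0 bases, among them those of PCNA, TMPO, LBX2, BOK and MCF2L. The windows are RefSeq sequence of GRCh38.p14, 5′ to 3′ on the strand of the antisense RNA: TMEM51-AS1 chr1:15152415-15152714 (minus), WWTR1-AS1 chr3:149657960-149658259 (plus), RASAL2-AS1 chr1:178093944-178094243 (minus) and URB1-AS1 chr21:32392883-32393182 (plus). Capitals mark the bases that also lie in the promoter window of the sense gene, 201, 284, 210 and 220 of 300.
TMEM51-AS1: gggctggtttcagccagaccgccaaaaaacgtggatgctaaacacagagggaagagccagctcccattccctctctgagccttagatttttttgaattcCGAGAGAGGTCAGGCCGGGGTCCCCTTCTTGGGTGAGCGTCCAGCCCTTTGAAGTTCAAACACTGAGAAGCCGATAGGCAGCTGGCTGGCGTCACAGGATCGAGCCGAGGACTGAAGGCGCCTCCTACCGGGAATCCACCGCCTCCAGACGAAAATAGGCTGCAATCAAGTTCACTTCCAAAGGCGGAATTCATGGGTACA
WWTR1-AS1: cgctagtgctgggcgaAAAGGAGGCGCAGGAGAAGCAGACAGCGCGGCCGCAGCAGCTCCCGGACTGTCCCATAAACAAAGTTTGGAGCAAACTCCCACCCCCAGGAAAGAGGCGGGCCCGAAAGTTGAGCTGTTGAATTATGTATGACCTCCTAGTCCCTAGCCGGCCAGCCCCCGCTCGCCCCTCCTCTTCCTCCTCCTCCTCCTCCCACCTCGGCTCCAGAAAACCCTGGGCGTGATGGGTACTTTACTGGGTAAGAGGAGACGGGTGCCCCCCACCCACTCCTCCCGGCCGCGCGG
RASAL2-AS1: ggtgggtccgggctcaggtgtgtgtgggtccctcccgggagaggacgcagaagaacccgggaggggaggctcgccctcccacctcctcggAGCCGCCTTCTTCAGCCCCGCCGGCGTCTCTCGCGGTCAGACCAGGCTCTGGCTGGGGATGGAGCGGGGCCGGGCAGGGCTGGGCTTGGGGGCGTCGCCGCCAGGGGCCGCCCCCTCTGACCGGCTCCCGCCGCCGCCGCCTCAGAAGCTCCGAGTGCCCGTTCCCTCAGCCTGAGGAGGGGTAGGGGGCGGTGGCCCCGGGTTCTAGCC
URB1-AS1: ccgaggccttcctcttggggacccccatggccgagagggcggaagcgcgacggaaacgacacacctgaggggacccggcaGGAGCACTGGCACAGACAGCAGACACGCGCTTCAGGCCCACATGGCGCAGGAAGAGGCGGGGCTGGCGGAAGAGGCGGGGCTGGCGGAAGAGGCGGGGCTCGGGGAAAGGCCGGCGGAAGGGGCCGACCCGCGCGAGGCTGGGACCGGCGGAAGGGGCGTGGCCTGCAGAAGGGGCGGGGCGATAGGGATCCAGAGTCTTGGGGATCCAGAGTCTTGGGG
The starts of these pairs lie 102, 185, 111 and 121 bases apart. The shared part of the TMEM51-AS1 window holds 1 motif match, CTTTGAA at base 146, and the other windows hold 0. GC makes up 55% of the TMEM51-AS1 window and 63.3%, 75% and 71.3% of the others.

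TMEM51-AS1 and TMEM51, which encodes a membrane protein, fell together. TMEM51-AS1 had 6.60, 6.84 and 6.89 on the siCtrl arrays, 6.26, 6.26 and 6.48 on the sißCat-WT arrays, 6.41, 6.26 and 6.44 on the sißCat-mut arrays and 5.45, 5.69 and 5.72 on the sißCat-both arrays. TMEM51 had 7.69, 7.78 and 8.09 on the siCtrl arrays, 7.55, 7.65 and 7.84 on the sißCat-WT arrays, 7.07, 7.21 and 6.86 on the sißCat-mut arrays and 6.70, 6.40 and 6.60 on the sißCat-both arrays. In both genes the sißCat-both arrays were below all others, and the sißCat-mut arrays below siCtrl. TMEM51-AS1 fell by 0.41 (adjusted p = 0.00945) and 1.16 (adjusted p = 1.41e-06) and TMEM51 by 0.81 (adjusted p = 0.000285) and 1.29 (adjusted p = 3.13e-06). After sißCat-WT the antisense RNA fell by 0.44 (adjusted p = 0.0139; 0.0627, 0.0662 and 0.0638 without siCtrl replicate 2, siCtrl replicate 3 or sißCat-WT replicate 2) and TMEM51 differed by -0.18 ± 0.13 (adjusted p = 0.489).

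WWTR1 encodes TAZ, a coactivator of the Hippo pathway. WWTR1-AS1 had 5.72, 5.79 and 5.85 on the siCtrl arrays, 5.45, 5.55 and 5.65 on the sißCat-WT arrays, 5.33, 5.13 and 5.21 on the sißCat-mut arrays and 4.92, 4.95 and 4.70 on the sißCat-both arrays. WWTR1 had 8.07, 8.19 and 8.18 on the siCtrl arrays, 7.99, 8.15 and 8.06 on the sißCat-WT arrays, 7.52, 7.65 and 7.43 on the sißCat-mut arrays and 7.67, 7.13 and 7.13 on the sißCat-both arrays. Both had lower arrays in sißCat-mut and sißCat-both than in siCtrl without overlap, and the first sißCat-both array of WWTR1 lay just above those of sißCat-mut. The antisense RNA fell by 0.56 and 0.93 (adjusted p = 0.000346 and 2.64e-06), and WWTR1 by 0.61 and 0.83 (adjusted p = 0.00232 and 0.000139).

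PCNA is the sliding clamp of DNA replication, and PCNA-AS1 starts 372 bases from it. PCNA-AS1 had 7.95, 8.03 and 7.92 on the siCtrl arrays, 8.21, 8.09 and 8.09 on the sißCat-WT arrays, 7.38, 7.56 and 7.38 on the sißCat-mut arrays and 7.43, 6.77 and 6.63 on the sißCat-both arrays. PCNA had 11.04, 11.04 and 11.01 on the siCtrl arrays, 11.20, 11.31 and 11.18 on the sißCat-WT arrays, 10.33, 10.57 and 10.34 on the sißCat-mut arrays and 10.24, 9.78 and 9.81 on the sißCat-both arrays. The first sißCat-both array stood above the other 2 in both genes, yet below all siCtrl arrays. PCNA-AS1 fell by 1.02 (adjusted p = 0.000131) and PCNA by 1.09 (adjusted p = 5.21e-06) after sißCat-both. After sißCat-mut PCNA fell by 0.62 (adjusted p = 0.001) and PCNA-AS1 by 0.53 (adjusted p = 0.0202; 0.0666, 0.0621 and 0.0649 without siCtrl replicate 2, sißCat-mut replicate 1 or sißCat-mut replicate 3).

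TMPO encodes lamina-associated polypeptides of the nuclear envelope. TMPO-AS1 had 8.61, 8.61 and 8.44 in siCtrl, 8.21, 8.02 and 7.74 in sißCat-mut and 8.38, 7.86 and 7.55 in sißCat-both, again with a high first array in the last group. It fell by 0.57 (adjusted p = 0.0266) and 0.63 (adjusted p = 0.0116), and TMPO by 0.81 (adjusted p = 0.0012) and 1.03 (adjusted p = 0.000112). The TMPO-AS1 call after sißCat-both ended without sißCat-both replicate 3 (0.0568), and that after sißCat-mut without siCtrl replicate 1 (0.0778), siCtrl replicate 2 (0.0801), sißCat-mut replicate 2 (0.0591) or sißCat-mut replicate 3 (0.116).

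RASAL2 encodes a GTPase-activating protein of Ras. RASAL2-AS1 had 5.96, 5.97 and 6.01 on the siCtrl arrays, 5.93, 6.05 and 6.08 on the sißCat-WT arrays, 6.15, 6.21 and 6.20 on the sißCat-mut arrays and 6.89, 6.83 and 6.70 on the sißCat-both arrays. RASAL2 had 7.91, 8.14 and 8.12 on the siCtrl arrays, 8.36, 8.60 and 8.50 on the sißCat-WT arrays, 8.08, 8.46 and 8.40 on the sißCat-mut arrays and 8.93, 9.10 and 9.35 on the sißCat-both arrays. The sißCat-both arrays were the highest of each gene. RASAL2-AS1 rose by 0.82 ± 0.07 (adjusted p = 1.32e-06) and RASAL2 by 1.07 ± 0.12 (adjusted p = 1.39e-05). After sißCat-WT RASAL2 rose by 0.43 ± 0.12 (adjusted p = 0.0418; 0.0514 to 0.165 without any of 7 single arrays) and its antisense RNA differed by 0.04 ± 0.07 (adjusted p = 0.851).

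URB1 encodes a factor of ribosome assembly, and its pair was the 1 of 13 with close starts that moved apart. URB1-AS1 had 6.73, 6.31 and 6.51 on the siCtrl arrays, 6.54, 6.27 and 6.33 on the sißCat-WT arrays, 7.06, 6.70 and 6.56 on the sißCat-mut arrays and 7.58, 7.38 and 7.46 on the sißCat-both arrays. URB1 had 8.32, 8.18 and 8.27 on the siCtrl arrays, 8.14, 8.14 and 8.20 on the sißCat-WT arrays, 7.66, 7.51 and 7.64 on the sißCat-mut arrays and 7.64, 7.49 and 7.79 on the sißCat-both arrays. URB1-AS1 was highest in sißCat-both, whereas URB1 was lower in both sißCat-mut and sißCat-both than in the other groups, with no overlap. URB1-AS1 rose by 0.96 ± 0.13 (adjusted p = 6.71e-05) and URB1 fell by 0.62 (adjusted p = 5.96e-05). After sißCat-mut URB1 fell by 0.66 (adjusted p = 6.15e-05), and URB1-AS1 differed by 0.26 ± 0.13 (adjusted p = 0.194).

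SVIL encodes supervillin, a protein that ties actin to the membrane, and SVIL-AS1 overlaps the region on the other strand with a start 224728 bases away. SVIL-AS1 had 7.72, 7.93 and 7.90 on the siCtrl arrays, 7.77, 7.92 and 7.75 on the sißCat-WT arrays, 8.21, 8.18 and 8.02 on the sißCat-mut arrays and 8.79, 8.88 and 8.79 on the sißCat-both arrays. SVIL had 6.74, 6.96 and 7.02 on the siCtrl arrays, 7.20, 7.48 and 7.52 on the sißCat-WT arrays, 6.72, 6.58 and 6.76 on the sißCat-mut arrays and 6.24, 6.09 and 6.06 on the sißCat-both arrays. The antisense RNA was highest in sißCat-both and the sense gene lowest there, and SVIL was highest in sißCat-WT. SVIL-AS1 rose by 0.97 ± 0.08 (adjusted p = 1.15e-06) while SVIL fell by 0.78 (adjusted p = 4.87e-05). After sißCat-WT SVIL rose by 0.49 ± 0.10 (adjusted p = 0.0075) beside a difference of -0.04 ± 0.08 in SVIL-AS1 (adjusted p = 0.861).

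**Figure D4:**
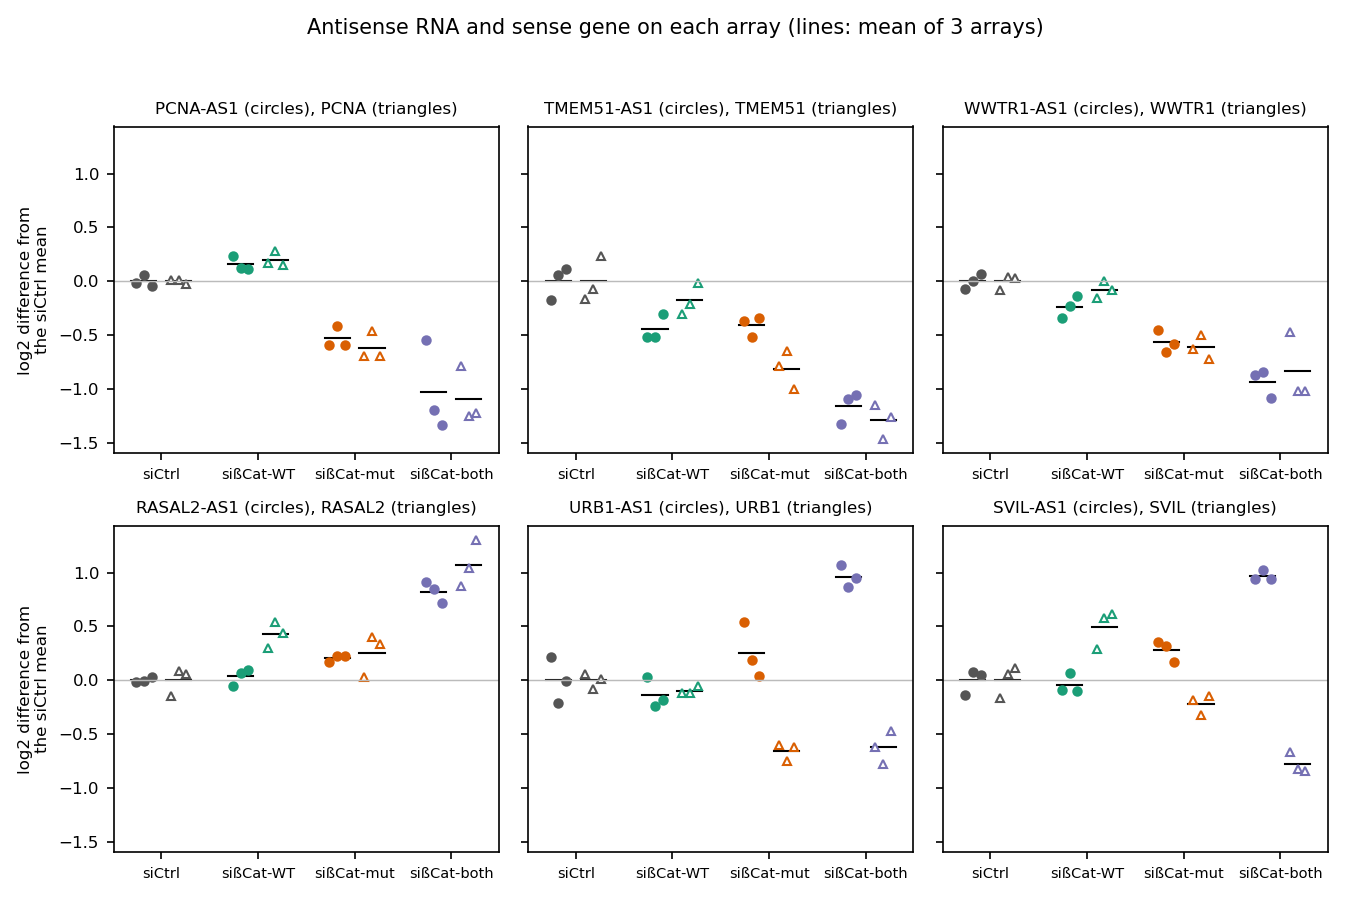
Log2 difference of each array from the gene's own siCtrl mean for 6 antisense RNAs (circles) and their sense genes (open triangles) in the 4 siRNA groups; lines are means of 3 arrays. In sißCat-both the partners lie on the same side of 0 for PCNA, TMEM51, WWTR1 and RASAL2, and on opposite sides for URB1 (0.96 and -0.62) and SVIL (0.97 and -0.78).

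Further pairs were called in both partners. After sißCat-both RAMP2-AS1 rose by 0.68 ± 0.13 (adjusted p = 0.000692) with RAMP2, a receptor accessory protein, by 0.65 ± 0.13 (adjusted p = 0.00144). LRP4-AS1 fell by 0.55 (adjusted p = 0.00235) with the receptor gene LRP4 by 1.02 (adjusted p = 1.05e-06). RBPMS-AS1 rose by 1.04 ± 0.18 (adjusted p = 0.000379) while RBPMS, an RNA-binding protein gene, changed by -0.31 ± 0.09 (adjusted p = 0.014; 0.0735 without siCtrl replicate 3). PAXBP1-AS1 rose by 0.60 ± 0.14 (adjusted p = 0.00325) while PAXBP1 fell by 0.64 (adjusted p = 1.52e-05).

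After sißCat-mut the widest split was that of ISM1, which encodes a secreted protein. ISM1-AS1 had 5.66, 5.94 and 5.99 on the siCtrl arrays, 6.25, 5.97 and 5.79 on the sißCat-WT arrays, 6.57, 6.53 and 6.38 on the sißCat-mut arrays and 5.91, 5.83 and 5.35 on the sißCat-both arrays. ISM1 had 7.93, 7.99 and 8.07 on the siCtrl arrays, 8.86, 9.02 and 8.96 on the sißCat-WT arrays, 6.79, 6.88 and 6.58 on the sißCat-mut arrays and 7.42, 6.99 and 6.99 on the sißCat-both arrays. ISM1 was highest in sißCat-WT and lowest in sißCat-mut, and ISM1-AS1 was highest in sißCat-mut, where its arrays lay above all others. ISM1-AS1 rose by 0.63 ± 0.15 (adjusted p = 0.00633) and ISM1 fell by 1.25 (adjusted p = 3.65e-06). EPHA1-AS1 (0.38 ± 0.07, adjusted p = 0.00121) and EPHA1, an ephrin receptor (1.12 ± 0.11, adjusted p = 7.45e-06), rose together, as did ZSWIM8-AS1 (0.38 ± 0.08, adjusted p = 0.00417) and ZSWIM8, a ubiquitin ligase subunit (0.98 ± 0.08, adjusted p = 7.73e-07). TMEM44-AS1 changed by 0.42 ± 0.12 (adjusted p = 0.0205), while TMEM44 changed by -0.41 (adjusted p = 0.00398). The groups of TMEM44-AS1 overlapped, and its call ended without any of 4 single arrays (0.0552 to 0.0953).

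After sißCat-WT the 4 pairs called in both partners were those of BOK, LBX2, ARHGAP5 and SBF2. BOK is a member of the BCL2 family of cell death regulators. BOK-AS1 had 7.24, 6.91 and 7.06 in siCtrl, 6.70, 6.40 and 6.62 in sißCat-WT, 7.50, 7.08 and 7.39 in sißCat-mut and 7.33, 7.48 and 7.23 in sißCat-both, lowest in sißCat-WT without overlap. BOK had 9.75, 9.85 and 9.69, 9.16, 8.72 and 8.83, 9.94, 9.91 and 9.65 and 9.26, 8.66 and 8.65 in the same order of groups, so it was low in sißCat-WT and in sißCat-both. BOK-AS1 fell by 0.50 (adjusted p = 0.0191) and BOK by 0.86 (adjusted p = 0.0029). Without siCtrl replicate 1, siCtrl replicate 3 or sißCat-WT replicate 2 the BOK-AS1 p rose to 0.0904, 0.0528 and 0.0944. After sißCat-both BOK fell by 0.90 (adjusted p = 0.000404) and BOK-AS1 differed by 0.28 ± 0.12 (adjusted p = 0.106).

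LBX2, a homeobox gene, and LBX2-AS1 were lower after sißCat-WT and higher after sißCat-both. LBX2-AS1 had 7.67, 7.73 and 7.60 on the siCtrl arrays, 7.29, 7.12 and 7.10 on the sißCat-WT arrays, 7.81, 7.49 and 7.39 on the sißCat-mut arrays and 8.62, 7.98 and 8.28 on the sißCat-both arrays. LBX2 had 7.01, 6.97 and 6.93 on the siCtrl arrays, 6.69, 6.42 and 6.35 on the sißCat-WT arrays, 6.89, 6.96 and 6.87 on the sißCat-mut arrays and 7.52, 7.32 and 7.47 on the sißCat-both arrays. Both genes were lowest in sißCat-WT and highest in sißCat-both, where none of the arrays of LBX2 overlapped those of another group. The changes after sißCat-both were 0.63 ± 0.14 (adjusted p = 0.00329) for LBX2-AS1 and 0.46 ± 0.09 (adjusted p = 0.00121) for LBX2. After sißCat-WT they were -0.50 ± 0.14 (adjusted p = 0.041; 0.0509 to 0.135 without any of 7 single arrays) and -0.49 ± 0.09 (adjusted p = 0.0037). The changes of ARHGAP5-AS1 (0.37 ± 0.10, adjusted p = 0.037) and SBF2-AS1 (-0.37 ± 0.10, adjusted p = 0.0236) likewise lost their calls without any of 6 and any of 3 single arrays (up to 0.16 and 0.112).

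Several sense genes with large changes had antisense RNAs that were not called. These pairs were chosen after their values were seen. DPYD encodes the first enzyme of pyrimidine breakdown. DPYD had 4.72, 4.67 and 4.71 on the siCtrl arrays, 4.85, 4.61 and 4.92 on the sißCat-WT arrays, 7.42, 7.67 and 7.28 on the sißCat-mut arrays and 8.60, 8.47 and 8.95 on the sißCat-both arrays. DPYD-AS1 had 3.47, 3.30 and 3.47 on the siCtrl arrays, 3.49, 3.43 and 3.76 on the sißCat-WT arrays, 3.60, 3.61 and 3.68 on the sißCat-mut arrays and 3.52, 3.52 and 3.78 on the sißCat-both arrays. DPYD was higher on every array of sißCat-mut and sißCat-both than on any other, while DPYD-AS1 stayed between 3.30 and 3.78 on the 12 arrays. DPYD rose by 3.98 ± 0.13 (15.8-fold, adjusted p = 2.7e-10) after sißCat-both, and DPYD-AS1 differed by 0.19 ± 0.10 (adjusted p = 0.168).

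ZNRF3 encodes a ubiquitin ligase that removes Wnt receptors and is a known Wnt target. ZNRF3 had 9.63, 9.77 and 9.76 in siCtrl, 9.70, 9.68 and 9.69 in sißCat-WT, 7.90, 7.64 and 7.34 in sißCat-mut and 8.01, 7.62 and 7.81 in sißCat-both, lower in the last 2 groups without overlap. It fell by 2.09 (adjusted p = 1.27e-07) and 1.91 (adjusted p = 1.08e-07), beside 0.06 ± 0.12 and -0.01 ± 0.12 for ZNRF3-AS1, which had a mean level of 4.25. After sißCat-both the same held for GPC5, a glypican (2.47 ± 0.15, against 0.12 ± 0.12 for GPC5-AS1), ARRDC3, an arrestin-like gene (1.55 ± 0.11, against -0.05 ± 0.08 for ARRDC3-AS1), EGFR, a growth factor receptor (1.55 ± 0.11, against -0.13 ± 0.09 for EGFR-AS1), and F11, coagulation factor XI (1.45 ± 0.10, against 0.07 ± 0.07 for F11-AS1). The p-values of the 4 antisense RNAs were 0.525, 0.672, 0.326 and 0.506. The starts of ARRDC3 and ARRDC3-AS1 lie 250 bases apart, those of F11, DPYD and GPC5 and their antisense RNAs 234869 bases, 825111 bases and 1321334 bases.

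Other non-coding genes were counted beside the antisense RNAs. Of 459 LINC genes, 15 (3.27%), 45 (9.8%) and 71 (15.5%) were called after sißCat-WT, sißCat-mut and sißCat-both, where all genes gave 10.2%, 25.6% and 33.6%. Of 29 intronic transcripts named with -IT, 1, 1 and 4 were called, and of 6 overlapping transcripts named with -OT, 0, 1 and 2. Of 9 host genes of small nucleolar RNAs (SNHG), 5 were called lower and 1 higher after sißCat-mut, 4 lower and 1 higher after sißCat-both, and 0 lower and 1 higher after sißCat-WT. Of 30 listed genes of RNA decay and of the response to double-stranded RNA, 19 were measured. After sißCat-mut 11 were called lower and 2 higher (all genes 13.6% and 12%), after sißCat-both 8 and 4 (all genes 18.1% and 15.5%), and after sißCat-WT 1 and 1 (all genes 4.97% and 5.2%). EXOSC5, a subunit of the RNA exosome, fell by 1.22 after sißCat-mut (adjusted p = 6.76e-06). The 2 called higher there were XRN1 (0.47 ± 0.08, adjusted p = 0.000488) and IFIH1 (0.32 ± 0.09, adjusted p = 0.013).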

How the data were processed

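RNA of 12 HepG2 samples was hybridised to Affymetrix arrays. The deposited values are log2 intensities per probe set after RMA. The submitters' processing notes name Affymetrix Expression Console 1.1 for this step. RMA compresses differences near the bottom of the range, where many antisense RNAs lie, and 3 arrays per group limit the precision. The labels' protocols name biotin-labelled single-stranded cDNA from total RNA.

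Of 53617 probe sets, 16098 had 1 gene symbol in the platform annotation, 0 had several and 37519 had none and were not used. Each of the 14884 genes was taken at its probe set with the highest mean. Of the antisense RNAs, 24 had more than 1 probe set, and for some of them the choice mattered. HLA-F-AS1 differed from siCtrl after sißCat-both by 0.42 in the probe set used and by 1.05 to 1.44 in its others. The values were fitted with limma 3.58.1 in R 4.3.3 (4 group means over the 12 arrays, moderated two-sided tests, Benjamini-Hochberg adjustment within a comparison over all genes, called under 0.05), after the script was tested on simulated data. Groups came from the sample labels. Figures and promoter searches used Python 3.11.15 and matplotlib 3.10.9.

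The genes named were the up to 10 highest and 10 lowest called antisense RNAs of each knockdown against siCtrl, the up to 4 and 4 of each other comparison, the 10 pairs with the largest changes of both partners, their sense genes, the 5 brightest members, and the genes most like the 3 largest changes. The lists of non-coding RNA classes, RNA decay and double-stranded RNA genes and cell markers are given as counts. Members and lists were chosen with earlier results of these data known.

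Titles number the replicates 1 to 3 in each group. Deviations from the group means correlated at 0.115, 0.155 and 0.134 for the 3 numbers between sißCat-both and sißCat-WT. No other pair of groups exceeded 0.1 for all 3, though a single value reached 0.189 (sißCat-WT and siCtrl, replicate 3). Arrays with unlike numbers were not compared, so a pairing was not tested, and the labels state none. Alternatives were another normalization, a filter on dim genes, averaged probe sets, other priors, array weights, only the groups compared, a replicate block and each array left out. The targeted gene was not analysed here.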

Additional observations from a re-analysis of the deposited data

Results flagged for a closer look

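The effect of sißCat-both differed from the summed effects of sißCat-WT and sißCat-mut in 8 named antisense RNAs. The test was that of the departure from additivity (sißCat-both minus sißCat-WT minus sißCat-mut plus siCtrl, limma with Benjamini-Hochberg adjustment over all genes). The 8 were chosen as the 4 highest and 4 lowest called departures. SNAP25-AS1 stood highest at 3.43 ± 0.21 (log2, SE; adjusted p = 7.18e-07), lower after sißCat-WT and higher after sißCat-both. LBX2-AS1 departed by 1.23 ± 0.20 (adjusted p = 0.000968) and USP30-AS1 by 0.99 ± 0.13 (adjusted p = 0.000254). CBR3-AS1 departed by 0.97 ± 0.27 (adjusted p = 0.0245), a call that ended without any of 6 single arrays (0.0528 to 0.0624).

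Departures below 0 were found for BCAR3-AS1, with -1.0 ± 0.15 (adjusted p = 0.000568), ISM1-AS1, with -0.93 ± 0.21 (adjusted p = 0.0081), C1QTNF1-AS1, with -0.91 ± 0.17 (adjusted p = 0.00267), and THAP9-AS1, with -0.68 ± 0.13 (adjusted p = 0.00263). C1QTNF1-AS1 had 6.04, 5.86 and 5.72 in siCtrl, 6.0, 6.13 and 6.38 in sißCat-WT, 5.76, 5.79 and 5.87 in sißCat-mut and 5.42, 5.19 and 4.99 in sißCat-both, so the sißCat-both arrays were below all others. The test assumes that changes add on the log2 scale, and knockdown of the targets was not measured here. Each knockdown was also a different siRNA, and a departure cannot be told apart from other effects of any of them.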

How the results depend on the processing

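Of the 8341 values of named genes under the alternatives, 8079 stayed on their side of the threshold, 193 lost the call and 69 gained it. The sign turned in 0 values with a call in either fit and in 107 with none. Of the counts, that of sißCat-WT against siCtrl ran from 12 to 25 when single arrays were left out (26 with all). Sense and antisense were both called in 0 to 5 pairs in that comparison (4 with all, all 4 the same way, likewise 0 to 5), in 7 with array weights, all 7 the same way, and in 2, both the same way, without the first arrays of sißCat-mut and sißCat-both, an alternative chosen after seeing the data. After sißCat-mut, leaving out single arrays gave 7 to 17 pairs (14 with all), 5 to 13 of them the same way (10 with all). The count of sißCat-both against sißCat-mut was 37 when the fit held just those groups and 36 to 59 when single arrays were left out (59 with all). The causes were not tested.

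With the replicate number as a block, the counts of called antisense RNAs were 26, 60 and 82 against siCtrl (26, 55 and 78 without it) and 96 for sißCat-both against sißCat-WT (89 without it). The block ended the sißCat-WT calls of ARHGAP5-AS1 (adjusted p = 0.0506) and ST20-AS1 (0.0505) and moved no count by more than 1.5 times. Without the first arrays of sißCat-mut and sißCat-both, PCNA-AS1 differed from siCtrl by -0.50 and -1.27 and TMPO-AS1 by -0.68 and -0.85. Many members lie near the bottom of the intensity range, where a missed call says little.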
